A study of Nannochloropsis oceanica with 15 samples.

Results

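Among the 9756 gene models of the marine alga Nannochloropsis oceanica, 23 were picked for a higher level at 24 h of red light than at 12 h, with no matching difference in blue light. They were selected on measured values, namely group medians of log2(FPKM + 1). FPKM counts sequenced fragments relative to the length of a model and the size of its library. The median had to be at least 0.6 higher in red 24 h than in red 12 h, a difference on the log2 scale, and at most 0.1 higher in blue 24 h than in blue 12 h. Blue 12 h and red 12 h had to lie within 0.4 of each other, red 12 h had to be no lower than white 0 h, and red 24 h had to reach 10 FPKM. The choice used all the groups, so the members' levels are a description and carry no test.

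Nannochloropsis is a single-celled heterokont alga whose only chlorophyll is chlorophyll a. Red light drives photosynthesis through that chlorophyll, while blue light is absorbed by chlorophyll and carotenoids and also by photoreceptors of the aureochrome and cryptochrome families. Cells that move between colours change both the energy they receive and the signals they perceive. The files pair no member with a gene name, so nothing is said here of what the 23 genes encode, and only 4 of them are printed by identifier.

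RNA was sequenced from wild-type cells of strain IMET1 kept in continuous light. The groups were red light for 12 h, red light for 24 h, blue light for 12 h, blue light for 24 h, and the white light in which all cultures stood before the switch, sampled at 0 h. Each group held 3 libraries, 15 in all, and the labels do not say whether they came from separate cultures. Any p-value therefore rests on how far these libraries differ from each other, which may reflect the technique alone. White 0 h was the only white sample analysed here, so a difference from white combines colour with time. Summed over the gene models, a library held 3130231 to 6442472 fragments, as worked out from the FPKM of scarce transcripts. Fragments outside the models are not in these sums. In RNA from a whole culture, fewer cells that express a gene and less RNA per cell cannot be told apart.

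Library 1 of red 24 h stood apart from the other 14 libraries. Across all models its log2 values correlated with those of libraries 2 and 3 at 0.932 and 0.913, while the correlation within every other pair of one group was at least 0.985. It was 0.985 for red 24 h libraries 2 and 3 and 0.991 to 0.994 in the other groups. The median FPKM of library 1 was 17.8, against 22.3 and 22.9 in libraries 2 and 3, and its 100 most abundant models held 38.4% of its FPKM sum, against 29.0% and 27.2%. The length subtracted from each model to recover fragments was 128.5 nt in library 1 and 135.5 to 148.0 nt in the others. The choice of the 23 genes rests in part on this library, and the rule and the tests are given below with and without it.

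The limits were met in steps. Of the 9756 models, 7222 reached 10 FPKM in red 24 h, and 478 of these were at least 0.6 higher in red 24 h than in red 12 h. In 82 of the 478 red 12 h was also no lower than white, and in 59 of the 82 blue and red lay within 0.4 at 12 h. The last limit, on blue light over time, divided these into the 23 members and 36 genes that were more than 0.1 higher in blue 24 h than in blue 12 h. The member nearest to the first limit had a red 24 h minus red 12 h difference of 0.602, and the nearest gene outside it had 0.592. For blue 24 h minus blue 12 h these values were 0.097 inside and 0.112 outside. Most members lay close to the first limit. Their difference of red 24 h over red 12 h ran from 0.60 to 1.38 with a median of 0.65, and 1 member exceeded 1.

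The label "rise by 24 h in red only" describes group medians, and the red 24 h libraries taken singly differed in how far they bore it out. In 22 of the 23 members red 24 h library 1 was the highest of its group, library 2 the middle one and library 3 the lowest. That order held in 25.1% of the 7222 models at 10 FPKM or more. The group median of these 22 members is therefore the value of library 2. Library 1 lay at least 0.6 above the red 12 h median in 22 members (21.2% of the 7222 models), and library 2 did so in 23 (7.31%). The limit on the median makes 2 of the 3 libraries reach 0.6 in every member. In the 22 members with that order, the counts for libraries 1 and 2 therefore follow from the rule. Library 3 reached 0.6 in 1 member (5.25%), and it lay below the red 12 h median in 2. No member was at least 0.6 above the red 12 h median in all 3 red 24 h libraries, which the rule did not ask for.

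**Figure D1:**
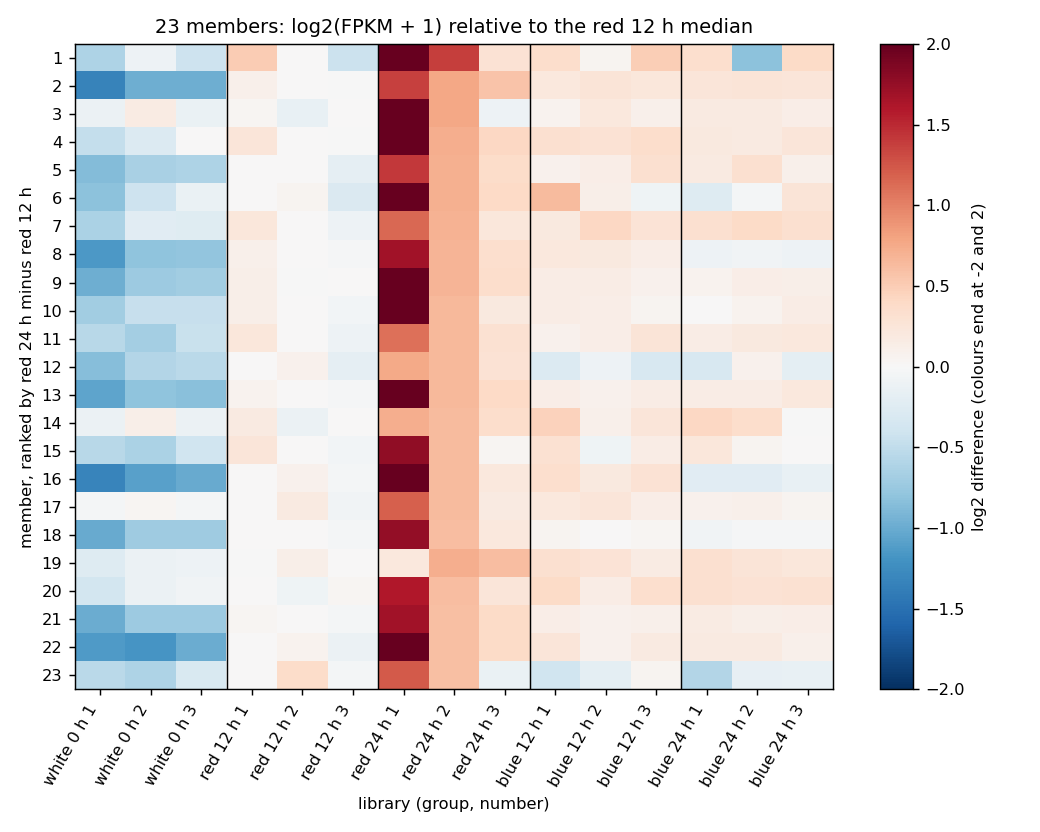
Level of each of the 23 members (rows, ranked by the median difference of red 24 h over red 12 h) in each of the 15 libraries (columns), as log2(FPKM + 1) minus the member's red 12 h median. Red 24 h library 1 is the darkest column, library 3 is the palest of the red 24 h group for most members, and white 0 h is lowest for most members.

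The sizes differed as much as the order. Relative to the red 12 h median, red 24 h library 1 was higher by a median of 1.69 on the log2 scale (range 0.22 to 4.18), library 2 by 0.65 (0.60 to 1.38) and library 3 by 0.30 (-0.14 to 0.62). Over the 7222 models the same medians were -0.24, 0.04 and 0.01. In blue light the 3 libraries at 24 h gave medians of -0.01, -0.01 and -0.02 relative to the blue 12 h median, and no member reached 0.6 in any of them. All 3 red 24 h libraries were above all 3 red 12 h libraries in 17 members, as they were in 19.4% of the 7222 models. They were above all 3 blue 24 h libraries in 16 members and in 13.9% of the models. The rule favours both counts, and nothing is read from them.

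**Figure D2:**
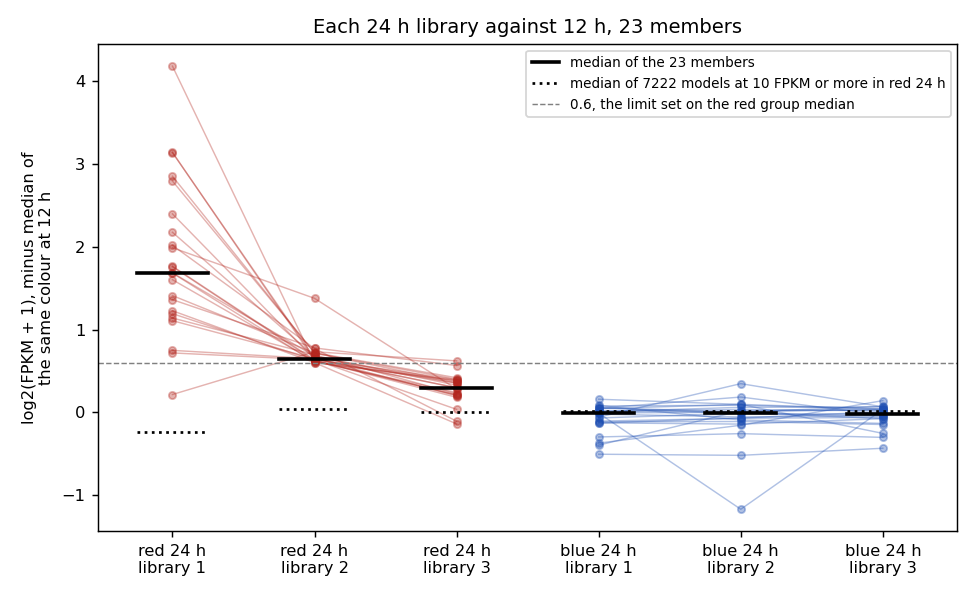
Difference of each 24 h library from the 12 h median of the same colour, on the log2(FPKM + 1) scale. Points are the 23 members and thin lines join the values of 1 member, the solid bars are their medians (1.69, 0.65 and 0.30 in red; -0.01, -0.01 and -0.02 in blue) and the dotted bars the medians of 7222 models.

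The members took a larger share of the measured RNA in red 24 h than in any other group. Their summed FPKM made up 3.14%, 3.03% and 2.99% of the total in the red 12 h libraries 1, 2 and 3. In the red 24 h libraries it was 8.17%, 4.27% and 3.64%. In blue light it was 3.22% to 3.24% at 12 h and 3.11% to 3.15% at 24 h, and in white it was 1.98% to 2.0%. All 3 red 24 h libraries lay above the other 12, an order that the rule favours and from which nothing is read. Library 1 stood far from libraries 2 and 3. The 5 members at 1130 FPKM or more in red 12 h weigh most in these sums. A share cannot tell more RNA of these genes from less RNA of the rest.

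The member with the largest difference between red 24 h and red 12 h among those whose libraries did not overlap was scaffold00341.g9713 (scaffold00341, positions 33126 to 34430, plus strand, 2 exons). It stood at 1139, 1461 and 1459 FPKM in white 0 h, at 3084, 2874 and 2844 in red 12 h, and at 7392, 4934 and 4257 in red 24 h. In blue light it stood at 3317, 3444 and 3366 FPKM at 12 h and at 3406, 3450 and 3412 at 24 h. Every red and blue library was above every white one, and all 3 red 24 h libraries lay above the 12 others. Its fitted log2 difference of red 24 h over red 12 h was 0.87 ± 0.17 (SE). It also met the rule without red 24 h library 1.

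The next such member was scaffold00043.g1743 (scaffold00043, 621346 to 621818, minus strand, 1 exon). It had 127.2, 145.8 and 177.3 FPKM in white 0 h, 208.8, 176.5 and 174.6 in red 12 h, and 1231, 291.9 and 236.3 in red 24 h. In blue light it had 219.6, 215.0 and 225.7 FPKM at 12 h and 201.2, 199.1 and 208.4 at 24 h. Library 1 alone set the mean of 586.5 ± 559 FPKM (SD, n = 3) in red 24 h. Red 24 h libraries 2 and 3 were far below library 1, although still above every library of the other groups.

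In blue light, 5 of the 23 members, scaffold00043.g1743 among them, had all 3 libraries at 24 h below all 3 at 12 h, as did 24.1% of the 7222 models. The limit on blue over time favours this count, which is near the share of all models and is no result about the members. The lowest difference was that of scaffold00330.g9184 (scaffold00330, 119907 to 122101, plus strand, 3 exons). Its white 0 h libraries held 8.43, 10.12 and 10.75 FPKM, its red 12 h libraries 22.7, 24.1 and 21.9, and its red 24 h libraries 207.8, 35.7 and 26.3. Its blue libraries held 28.9, 26.0 and 27.8 FPKM at 12 h and 19.3, 19.1 and 20.3 at 24 h. Blue 24 h was thus below blue 12 h and also below red 12 h, while all 3 of its libraries were above all 3 white ones. The fitted log2 difference of blue 24 h over blue 12 h was -0.47 ± 0.49 (SE), an error that the spread of red 24 h enters through the shared fit.

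The next lowest difference was that of scaffold00185.g5950 (scaffold00185, 595276 to 598245, minus strand, 8 exons). It held 405.6, 513.0 and 518.7 FPKM in white 0 h, 961.3, 899.8 and 887.3 in red 12 h, and 2898, 1443 and 1131 in red 24 h. In blue light it held 1042, 1028 and 982.3 FPKM at 12 h and 837.1, 860.7 and 834.2 at 24 h. At 24 h every red library was above every blue one, while at 12 h every red library was slightly below every blue one.

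**Figure D3:**
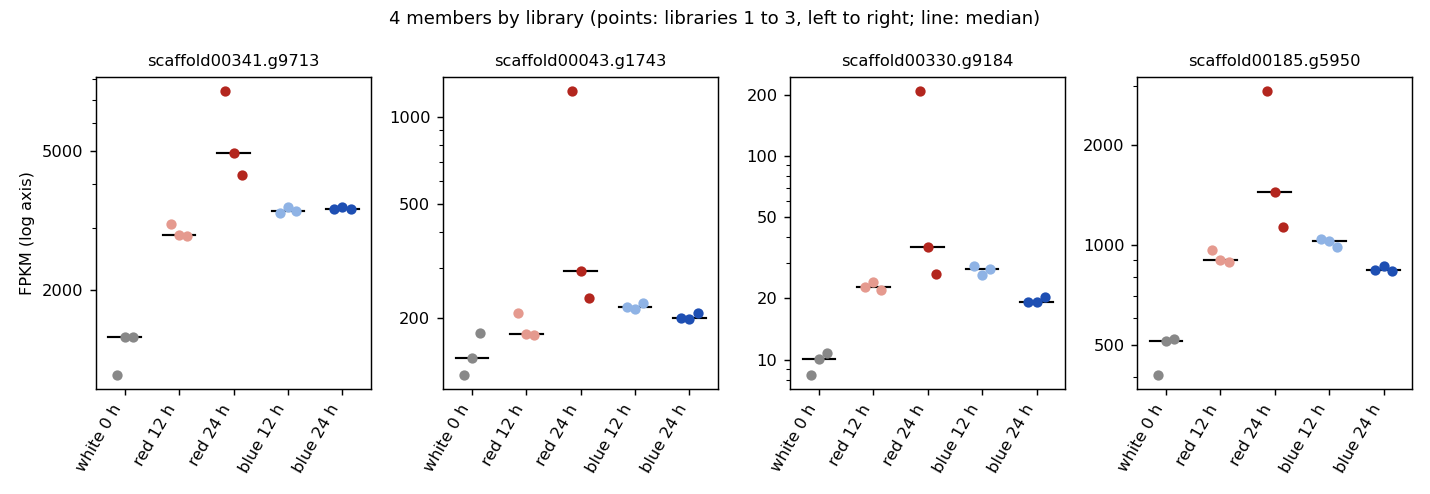
FPKM (log axis) of the 4 members named in the text in each library; points are libraries 1, 2 and 3 from left to right, and lines are group medians. Red 24 h library 1 is the highest point in every panel, and blue 24 h lies below blue 12 h in every panel but the first.

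The members covered a wide range of levels. By their mean FPKM in red 12 h, 5 stood between 1130 and 4790, 6 between 135 and 916, and 12 between 16.6 and 93.9. Relative to that mean, red 24 h library 1 was 2.52 to 5.22 times as high in the 5 most abundant genes, 2.09 to 18.41 times in the middle 6 and 1.14 to 9.08 times in the 12 least abundant. Library 2 was at 1.52 to 1.68, 1.51 to 1.57 and 1.42 to 2.56 times, a range whose lower end the rule sets, since library 2 is the group median in 22 members. Library 3 was at 1.17 to 1.45, 1.10 to 1.32 and 0.83 to 1.52 times. In all 5 of the most abundant genes the 3 red 24 h libraries lay above all 3 red 12 h libraries, as they did in 5 of the middle 6 and in 7 of the lowest 12. The same held in 66.7%, 31.6% and 17.0% of the models at 1000 FPKM or more, at 100 to 1000 and under 100 in red 12 h, so the share rises with the level in all models, and the rule favours each of the members' counts. Among the 100 most abundant models of a library there were 9, 7 and 6 members in red 24 h libraries 1, 2 and 3, and 6 in each of the other 12 libraries.

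In the 5 most abundant members, scaffold00341.g9713 among them, counting error is small. The most abundant, at scaffold00214:1086-2040 with 2 exons, held 2393, 2942 and 2932 FPKM in white 0 h, 4860, 4814 and 4702 in red 12 h, and 16310, 7415 and 5584 in red 24 h. In blue light it held 4985, 4844 and 4948 FPKM at 12 h and 4601, 4714 and 4745 at 24 h. Its 6 blue libraries therefore overlapped red 12 h, and all of them lay below red 24 h. A model of 5 exons at scaffold00271:617050-621034 held 5912, 1751 and 1474 FPKM in red 24 h and 1176, 1120 and 1100 in red 12 h. Its blue libraries held 1247, 1238 and 1298 FPKM at 24 h and 1233, 1195 and 1244 at 12 h, so that blue stayed within a narrow band at both times. Among the least abundant members, a model of 5 exons at scaffold00182:902216-908630 had red 24 h libraries that differed much less, at 52.8, 49.2 and 38.3 FPKM, against 31.0, 32.8 and 27.2 in red 12 h. These 3 genes were chosen after their values were seen.

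The excess of library 1 was not a fixed multiple of that of library 2. On the FPKM scale, library 2 stood between 1.3% and 75.0% of the way from library 3 to library 1 in the 22 members where library 1 was the highest. The lowest of these values belonged to a model of 6 exons at scaffold00055:260-2507, which held 3844, 320.3 and 275.0 FPKM in red 24 h and 210.6, 221.4 and 194.3 in red 12 h. The only member in which library 1 was not the highest had 19 exons, the most of all members, and lies at scaffold00214:423080-434344. It held 34.1, 49.1 and 45.5 FPKM in red 24 h and 28.9, 31.7 and 29.2 in red 12 h. Both genes were singled out after their values were seen.

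Depth was lowest in 1 member. The smallest model, a single exon of 271 nt at scaffold00354:362857-363127, had the largest difference between red 24 h and red 12 h, but rested on 28, 19 and 14 fragments in red 24 h and on 22, 10 and 7 in red 12 h. Its 67.2, 43.6 and 19.9 FPKM in red 24 h overlapped its 23.3, 16.2 and 11.8 FPKM in red 12 h. The member with the next fewest, a model of 3 exons at scaffold00043:1339498-1340289, held 30 to 70 fragments in a library. Its red 24 h libraries also overlapped those of red 12 h. In 16 members every library held at least 100 fragments.

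Red 24 h also stood above white in every member, by 0.67 to 1.79 on the log2 scale (median 1.21), and in 16 members by 1 or more. The limits on red 24 h over red 12 h and on red 12 h over white together force at least 0.6 here. Part of the difference from white was already present at 12 h. Red 12 h was above white by 0.04 to 1.14 (median 0.55), where the 7222 models had a median of 0.25. The rule held the members at 0 or more in this difference, a limit not set on the 7222 models. In blue light, whose level against white the rule did not set directly, the members were above white by 0.21 to 1.37 at 12 h (median 0.69) and by 0.13 to 1.31 at 24 h (median 0.61). The 7222 models had medians of 0.25 and 0.24. By limma's test over 9601 genes with Benjamini-Hochberg adjustment, 12 members were higher in blue 12 h than in white (32.3% of all genes) and 11 in blue 24 h (31.1%). None was lower. Without white 0 h library 1 the 12 h count was 7 (24.6%), and without red 24 h library 1, which enters through the shared spread, the counts were 20 and 18 (42.4% and 41.8%). The limits on red 12 h and on the gap between colours leave a member at most 0.4 below white in blue 12 h, so these counts are not independent of the rule. By group medians, each member was higher in both colours than in white at both times, an order that the rule sets in red.

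Whether the change over time differed between the colours was fitted as an interaction of light and time. It sets the difference of red 24 h over red 12 h against that of blue 24 h over blue 12 h. The rule made this contrast of group medians positive in all 23 members, while the fit uses group means. None of the 23 passed limma's test with Benjamini-Hochberg adjustment, against 1.54% of all 9601 genes that passed in this direction. At an unadjusted p under 0.05 the members numbered 18 (7.2% of all genes), and limma's voom on recovered fragments passed 1 after adjustment (1.45%). Without red 24 h library 1 there were 13 (5.05%), and without library 3 there were 19 (4.16%). In the plain comparison of red 24 h with red 12 h, 17 members passed as higher (12.8% of all genes). That count was 20 without red 24 h library 1 (17.2%). It was 9, 7 and 3 without red 12 h library 1, 2 or 3, where 8.27%, 6.73% and 6.54% of all genes passed, and it was 0 with only those 6 libraries in the fit (1.59%). No member passed as lower in blue 24 h than in blue 12 h (2.76% of all genes), neither at an unadjusted p under 0.05 nor with voom, while 2 did without red 24 h library 1, where 10.8% of all genes did. The rule used these contrasts, so nothing is read from the counts.

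Membership was recomputed without each library. Leaving out any white or blue library gave 20 to 24 genes, of which 20 to 23 were members. Without red 12 h library 1, 2 or 3 the numbers were 31, 25 and 16, with 19, 19 and 13 members among them. The red 24 h libraries moved the set most. Without library 1, 4 genes met the rule, 3 of them members. Without library 2 there were 179 genes and without library 3 there were 240, with 19 and 22 of the members. The 3 members that stayed without library 1 were scaffold00341.g9713, the 19-exon model of scaffold00214 and the 271-nt model of scaffold00354. The gene that joined them, with 8 exons at scaffold00089:96-3571, held 13.5, 23.9 and 20.1 FPKM in red 24 h and 14.9, 13.3 and 13.7 in red 12 h.

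**Figure D4:**
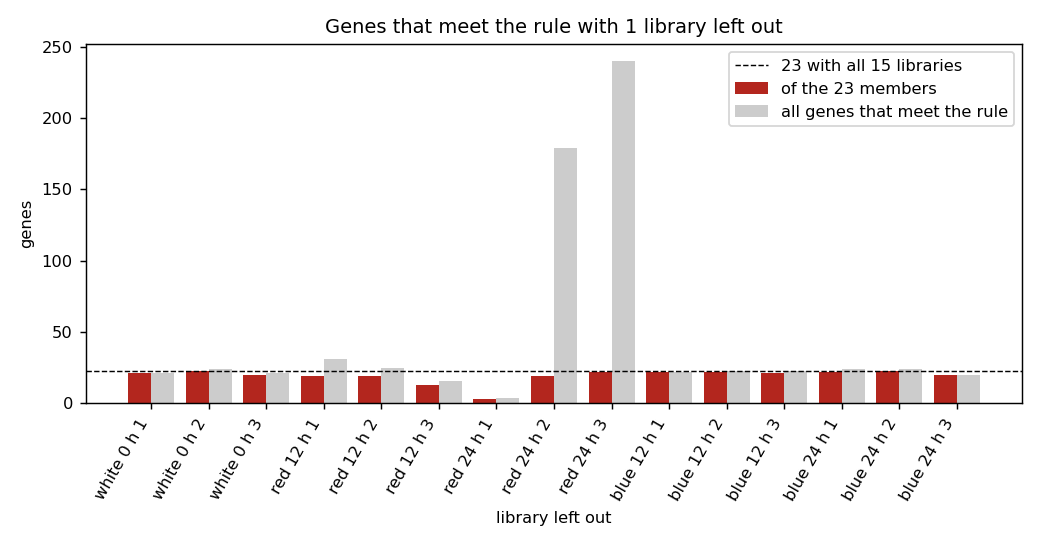
Number of genes that meet the rule (grey) and how many of them are among the 23 members (red) when 1 library is left out; the dashed line marks 23. Without red 24 h library 1 there are 4 genes, and without library 2 or 3 there are 179 and 240.

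The choice was repeated on libraries of 2 numbers, and the differences were then read in the third library of each group, which had not been used. Chosen on libraries 2 and 3, 5 genes met the rule, and in the libraries numbered 1 red 24 h was at least 0.6 above red 12 h in 4 of them (20.0% of all models at the same level). Their median difference there was 1.40, against -0.27 over all models, and 5 of the 5 were above 0, as were 39.0% of all models. Chosen on libraries 1 and 3, 173 genes met it, and 19 of them reached 0.6 in the libraries numbered 2 (8.03%). The median difference of the 173 was 0.33, against 0.06 over all models, and 154 of the 173 were above 0, as were 56.4% of all models. Chosen on libraries 1 and 2, 250 genes met it, and 3 of them reached 0.6 in the libraries numbered 3 (5.77%). Their median was 0.12, against 0.02 over all models, and 172 were above 0, as were 52.9% of all models. In blue light the held-out medians of these genes were 0.04, 0.0 and 0.02. The 3 choices thus differed: the chosen genes lay above the median of all models in each, while a difference of 0.6 was rarer among them than among all models in the libraries numbered 3.

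The pattern of the members was shared by other genes that were high in library 1. Of the 1528 models at which library 1 lay at least 0.6 above red 12 h, 77.1% had library 1 above library 2 and library 2 above library 3. Choosing models by a high library 1 favours the first part of that order, while library 2 over library 3 was not set by it. Across the 7222 models, the difference of library 1 from the red 12 h median correlated with that of library 2 from library 3, which share no library, at 0.45 (Pearson) and 0.47 (Spearman). Genes are not independent replicates, and both values are a description. Among the 36 genes that met all limits except that on blue over time, that order held in 19. Their red 24 h libraries 1, 2 and 3 had medians of 0.94, 0.67 and 0.60 relative to red 12 h, and library 3 reached 0.6 in 18 of them. The 36 and the 23 genes share all libraries, and their difference in blue was fixed by the rule.

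The members were short, a property that the rule did not use, and so were the genes most like them. Their summed exons had a median of 1017 nt, against 1083.5 nt in the 36 genes that missed only the limit on blue over time and 1651.5 nt in the 7222 models, and 8 of the 23 (34.8%) were under 600 nt, against 3.3%. Of the 36 genes, 4 (11.1%) were that short. The members ranged from 271 to 3953 nt. Length also moved with library 1 in general. Across the 7222 models the difference of library 1 from red 12 h correlated with log2 exon length at -0.35, while it correlated with the red 12 h level at 0.04. When the length trend of each library was removed, 10 genes met the rule, 9 of them members. The median difference of the 23 members between red 24 h and red 12 h was then 0.58. Their choice on these same libraries favours such a value, and nothing is read from it. The part of model length in the members' values was not tested.

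**Figure D5:**
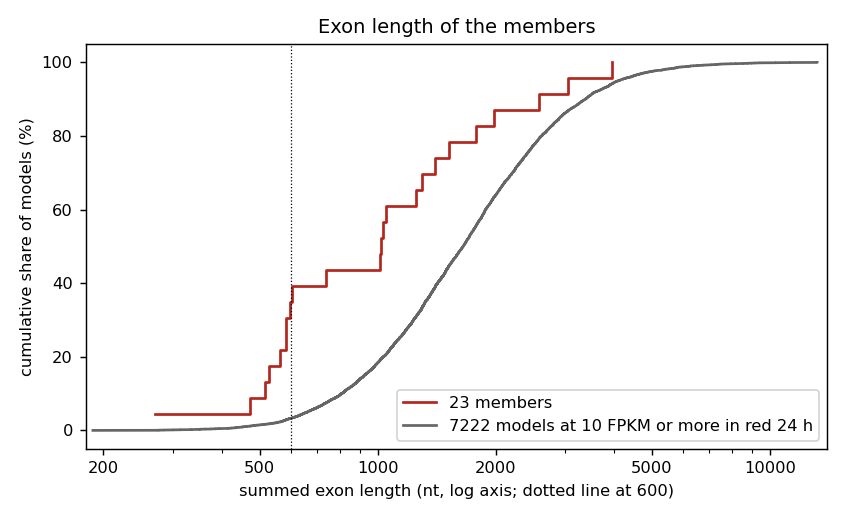
Cumulative share of models by summed exon length (nt, log axis) for the 23 members (red) and for the 7222 models at 10 FPKM or more in red 24 h (grey). At the dotted line, 600 nt, the members stand at 34.8% and the other curve at 3.3%.

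Exon number and position set the members apart less. Single-exon models made up 8 of the 23 (34.8%), against 29.9% of the 7222, and 3 members (13.0%) had 8 exons or more, against 7.6%. The members lay on 18 scaffolds, with 2 members on 5 of these. On the plus strand were 13 members, and 3554 of the 7222 models. No member neighboured another. The closest 2 were 45514 nt apart on scaffold00354. None of the 7222 models overlapped another gene model, the members included. The nearest neighbour of a member lay a median of 78 nt away, against 59 nt over the 7222 models. Another model lay within 200 nt of 19 members, a count not made for the 7222 models. The models next to the members did not follow them. The 35 models next to a member that reached 10 FPKM had a median difference of -0.07 between red 24 h and red 12 h, with 1 at 0.6 or more, and their median in library 1 was -0.34. The values over all 7222 models were 0.01 and -0.24. Counting of reads by strand is not stated in the sources used here, and models this close could share reads at their ends.

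DGAT1A, the only model that the files name, encodes a diacylglycerol acyltransferase of storage-oil synthesis and was not a member. It held 20.4, 33.6 and 30.4 FPKM in red 24 h and 34.8, 32.5 and 34.3 in red 12 h. Its lowest red 24 h value was that of library 1, which was the lowest of its group in 59.7% of the 7222 models.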

How the data were processed

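The authors deposited FPKM values per gene model and library, 1 table per group, and gene models named IMET v2. Per the submitters' processing notes, TopHat, TopHat2 2.0.4 and Cufflinks 2.0.4 were used; settings and a genome build are not given in the sources used here. In the red 12 h file a column name occurs more than once, and the values of its library 3 were told apart by the column of sample names in that table. The exon starts and ends of the deposited gene models gave lengths and positions.

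The rule was applied to medians of log2(FPKM + 1) over all 9756 models. The members and lists were chosen with earlier results of these data known. Fits were made on the log2(FPKM + 1) scale in limma 3.58.1 (R 4.3.3), by lmFit and eBayes with a trend, all 15 libraries in 1 fit, genes with at least 1 FPKM in at least 3 libraries (9601, all 23 members among them), two-sided tests, Benjamini-Hochberg adjustment over all of them and a threshold of 0.05. Fitted differences are of FPKM + 1 and understate those of low genes. Fragments were recovered as whole multiples, within 0.1, of a step per library that depends on exon length, which held for 100% of values of at most 30 fragments in models of at least 500 nt effective length. Medians, counts and figures used Python 3.11.15, pandas 2.3.3 and matplotlib 3.10.9. The procedures were tested on simulated data.

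Genes were named by this rule: the 2 members with the largest difference of red 24 h over red 12 h and the 2 with the lowest of blue 24 h over blue 12 h, with groups that did not overlap, and DGAT1A. The reference table of 160 genes matched 0 identifiers, so 3 of the 4 gene lists, on photoreceptors, on photosynthesis and carbon fixation and on nitrogen assimilation, had no gene found, and that on triacylglycerol assembly had DGAT1A alone.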

Additional observations from a re-analysis of the deposited data

How the results depend on the processing

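The 23 genes depended on the setting. With means in place of medians 91 genes met the rule, with quantile normalization 12, with the same median in every library 42, and with equal sums of all but the 50 most abundant genes, called the same sum below, 5. A minimum of 0.8 for red 24 h over red 12 h left 1 gene, a minimum of 0.4 gave 111, and a limit of 0 on blue gave 13. Leaving out 1 library gave 4 to 240. Chosen after seeing the data, the lowest red 24 h library in place of the median gave 0, and removing the length trend gave 10. Under these 4 scalings the members' median difference was 0.54 to 0.71, and the median of the 7222 models moved to between -0.10 and 0.08. All 23 stayed above 0 except 1 member with quantile normalization.

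Members that passed limma's test as higher in red 24 h than in red 12 h numbered 17 (12.8% of all genes). There were 0 with only the groups compared (1.59%), and 3 to 23 with 1 library left out (6.54% to 19.5%). For the interaction the count was 0 (1.54%), but 2 with quantile normalization (2.61%) or the length trend removed (3.53%). It was 1 at the same median (3.89%), at the same sum (1.3%) or with voom (1.45%). Array weights, whose estimation stopped before it converged, gave 23. With 1 library left out the count was 0 to 19 (1.03% to 5.05%). With array weights 21.6% of all genes passed for the interaction in that direction. Against white, the counts for blue light at 12 h and at 24 h were 19 and 19 with only the groups compared (40.4% and 40.3% of all genes). With array weights they were 20 and 18 (41.9% and 41.8%). With 1 library left out they were 7 to 20 (24.6% to 42.4%) and 8 to 18 (23.9% to 41.8%). Members lower in blue 24 h than in blue 12 h numbered 4 with only the groups compared (16.9% of all genes) and 2 with array weights (18.9%). With 1 library left out they numbered 0 to 2 (1.41% to 10.8%). The difference of blue 24 h over blue 12 h in scaffold00341.g9713, 0.02 as deposited, was -0.01 at the same median, -0.02 at the same sum and -0.04 with the length trend removed, none of them called. The cause was not tested.

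Over all genes, red 24 h against red 12 h gave 1233 higher and 1518 lower, with 2041 and 1455 at the same median, 867 and 2336 at the same sum and 962 and 2315 with voom. For the interaction, 148 and 71 became 125 and 102 at the same sum and 139 and 202 with voom. Blue 12 h against white gave 3105 and 2509, with 2270 and 2780 at the same sum and 2394 and 3005 with voom, and blue 24 h against white 2982 and 2294, with 2068 and 2718 at the same sum and 2395 and 2935 with voom. Blue 24 h against blue 12 h gave 430 and 265, with 602 and 578 at the same median.

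With the replicate block, 19 members were higher in red 24 h than in red 12 h (12.7% of all genes). Above white there were 13 at blue 12 h (32.7%) and 11 at blue 24 h (31.5%). For the interaction 0 passed (1.48%), and 0 passed as lower in blue 24 h than in blue 12 h (2.56%). Same-numbered libraries correlated over 0.1 in 2 of 30 pairs. Both were of red 12 h with red 24 h, at 0.22 for number 1 and 0.16 for number 3. The labels do not say whether the numbers pair the samples, and these correlations cannot settle it.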
